A study of Mus musculus with 4 samples.

Results

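The 36 genes described here are the fibroblast growth factor (FGF) ligands, their receptors, and genes that FGF signalling induces as feedback. They were picked by gene name from the 45706 genes of the count table, with earlier results of these data known. The list holds every gene named Fgf followed by a number (22 genes), Fgfr1 to Fgfr4, and the Sprouty genes Spry1, Spry2 and Spry4. It also holds Fgfrl1, Fgfbp1, Dusp6, Spred1, Spred2, Etv4 and Etv5. Poly-A RNA was sequenced from regenerating mouse digit tips, cut free at the distal interphalangeal joint 14 days after amputation, with 1 library each for Sp6 conditional knockout (cKO), Sp8 cKO, Sp6+Sp8 cKO and wildtype. Per the labels, the cKO libraries belong to batch 1 and the wildtype library to batch 3. Every ratio to wildtype therefore sets 1 batch against another, and an effect of knockout and one of batch cannot be told apart in it, whereas ratios among the cKO libraries stay inside batch 1. Per the labels' protocols, knockout mice received tamoxifen at 75 mg/kg on each of 5 days and rested for 5 days until amputation. The sources used here do not give the Cre driver, the age and strain of the mice, the pooling of digits or animals, the amputation level of these samples, or whether wildtype mice were given tamoxifen: the protocol text is attached to all 4 samples and speaks of inducing knockouts.

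FGF ligands bind receptor tyrosine kinases together with heparan sulfate and switch on the RAS and ERK cascade. The cascade induces its own inhibitors, the Sprouty, Spred and Dusp6 proteins, and the ETS factors Etv4 and Etv5, so these transcripts are widely read as a record of FGF and other ERK signalling. In the embryonic limb bud the apical ectodermal ridge secretes Fgf4, Fgf8, Fgf9 and Fgf17, the mesenchyme answers with Fgf10, and Sp6 and Sp8, zinc-finger factors of the Sp family, are needed in the ectoderm for ridge formation. Factors of this family are known for binding GC-rich boxes.

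The promoter windows of 4 ligands are shown because Fgf18 and Fgf22 were the members past the 2-fold size rule given further on, and Fgf7 and Fgf10 are abundant mesenchymal ligands that did not. Each runs 5′ to 3′ on the gene's strand, from 250 bases before to 50 after the RefSeq start (GRCm38.p6), and capitals mark the GC box GGGCGG or its reverse complement CCGCCC. The windows are chr11:33147351-33147650 (minus strand) for Fgf18, chr10:79754859-79755158 (plus strand) for Fgf22, chr2:126034408-126034707 (plus strand) for Fgf7 and chr13:118714449-118714748 (plus strand) for Fgf10.
Fgf18: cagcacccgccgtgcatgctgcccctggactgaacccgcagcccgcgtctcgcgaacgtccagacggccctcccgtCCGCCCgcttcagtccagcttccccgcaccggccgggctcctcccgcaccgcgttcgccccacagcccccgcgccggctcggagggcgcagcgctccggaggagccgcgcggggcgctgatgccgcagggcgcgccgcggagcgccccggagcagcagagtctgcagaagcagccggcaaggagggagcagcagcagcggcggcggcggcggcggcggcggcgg
Fgf22: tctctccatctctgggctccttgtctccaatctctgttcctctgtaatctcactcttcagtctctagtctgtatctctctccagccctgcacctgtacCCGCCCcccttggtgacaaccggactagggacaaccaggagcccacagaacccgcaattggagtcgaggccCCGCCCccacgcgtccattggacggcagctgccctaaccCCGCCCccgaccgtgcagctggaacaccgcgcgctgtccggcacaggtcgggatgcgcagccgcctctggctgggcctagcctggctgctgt
Fgf7: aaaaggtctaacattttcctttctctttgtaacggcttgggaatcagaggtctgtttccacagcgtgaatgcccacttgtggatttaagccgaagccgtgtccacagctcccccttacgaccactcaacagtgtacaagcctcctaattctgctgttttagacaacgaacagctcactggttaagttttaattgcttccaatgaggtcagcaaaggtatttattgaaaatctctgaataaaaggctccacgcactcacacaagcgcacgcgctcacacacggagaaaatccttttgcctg
Fgf10: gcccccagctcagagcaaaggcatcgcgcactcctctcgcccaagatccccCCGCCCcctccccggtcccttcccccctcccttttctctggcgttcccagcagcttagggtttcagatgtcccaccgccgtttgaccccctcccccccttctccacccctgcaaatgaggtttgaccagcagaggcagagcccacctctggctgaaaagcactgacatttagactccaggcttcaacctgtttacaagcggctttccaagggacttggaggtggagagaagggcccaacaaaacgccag
The Fgf18 window held 1 GC box at 78.7% G and C, the Fgf22 window 3 at 63.7%, the Fgf10 window 1 at 60.7%, and the Fgf7 window 0 at 45.7%. A window was available for 27 of the 36 genes, and 18 of these 27 genes (66.7%) had a GC box on either strand in at least 1 window, against 38.2% of all 27025 genes with a window. Members' windows had a median G and C content of 62.7%, against 52.7% over all windows, and a 6-base match is a description of the letters and not a binding site.

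Counts summed to 13054843 in Sp6 cKO, 12588511 in Sp8 cKO, 15146015 in Sp6+Sp8 cKO and 21834883 in wildtype. Levels are given as CPM, counts scaled to library size after TMM normalization (a scaling of library totals), and log2 ratios were taken from CPM with a prior count of 2, which draws them toward 0 at low counts. Folds and their intervals were taken from CPM without the prior, so a fold and a log2 ratio of the same gene can differ. With 1 library a group no difference could be tested. A gene was past the size rule at a log2 ratio of 1 or more in size (2-fold), a CPM of at least 1 in either library and an exact 95% interval of the ratio that excluded 1, and all intervals cover counting error only. The deleted genes were lower in their own libraries: Sp6 was 29.2 CPM in Sp6 cKO, 95.6 CPM in Sp8 cKO and 57.8 CPM in Sp6+Sp8 cKO, against 97.7 CPM in wildtype. Sp8 was 66.1, 16.8 and 13.4 CPM in the same cKO libraries, against 63.9 CPM in wildtype. Sp6 in the Sp6+Sp8 cKO library was 1.69-fold lower than in wildtype, which falls short of the size rule. In this bulk tissue fewer cells of a type and less RNA per cell cannot be told apart. The labelled digit tip expressed its main tissues in all libraries, with summed CPM of the 6 basal keratinocyte markers from 5695 to 6226. The 6 fibroblast markers summed to 11584 CPM in Sp6 cKO, 11294 CPM in Sp8 cKO and 9178 CPM in Sp6+Sp8 cKO, against 11589 CPM in wildtype. All 6 were on the lower side of wildtype in Sp6+Sp8 cKO, and their part in the levels of FGF genes was not tested.

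A level of 1 CPM in any library was reached by 25 of the 36 genes, and few of these differed by much. No member was past the size rule in Sp6 cKO against wildtype, where 4.4% of all 16884 genes compared were past it in either direction and 2.16% were lower. Fgf18 alone was lower in Sp8 cKO against wildtype (background 1.55% of genes lower) and alone was lower in Sp6+Sp8 cKO against wildtype (2.95% lower). The median log2 ratio to wildtype of the 25 genes was -0.02 for Sp6 cKO, 0.01 for Sp8 cKO and 0.02 for Sp6+Sp8 cKO, beside -0.01, -0.01 and -0.02 over all 17332 measured genes. The 25 genes thus had 0, 1 and 1 calls, shares of 0%, 4% and 4% beside a background of 4.4%, 3.82% and 5.79% in either direction. With a threshold of 1.5-fold in place of 2-fold, the members past the rule were 1 (Spry4) in Sp6 cKO against 9.09% of all genes, 2 (Fgf1 and Fgf18) in Sp8 cKO against 8.16%, and 2 (Fgf18 and Fgf22) in Sp6+Sp8 cKO against 13.8%. Of the 25 genes, 7 were on the higher side of wildtype in the 3 cKO libraries, 6 on the lower side and 12 were mixed. The 3 ratios of each gene share 1 wildtype value, which by itself favours a common sign. This split was not taken over all measured genes, so it has no background to be read against.

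**Figure D1:**
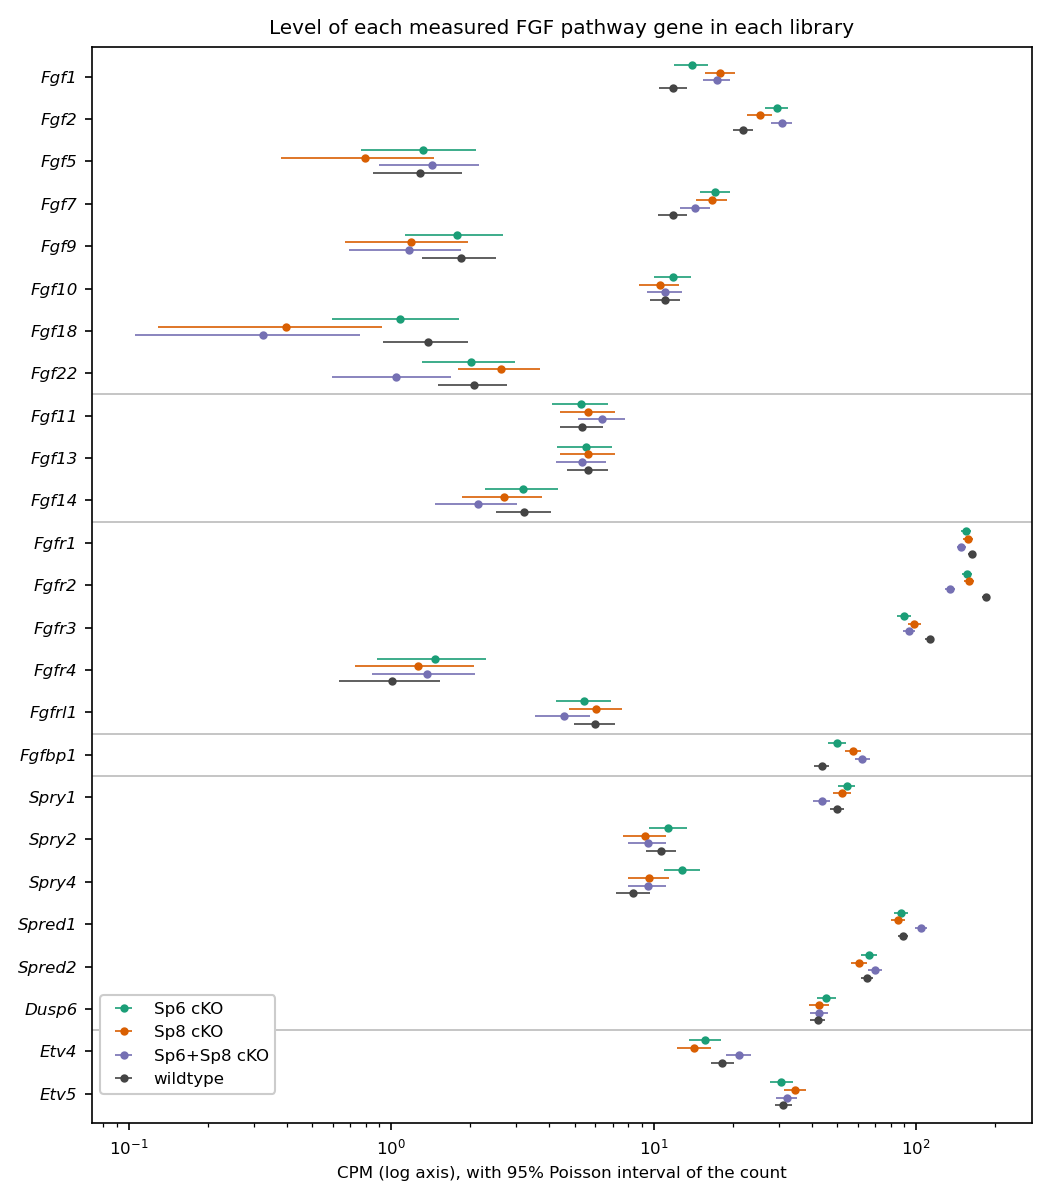
Level of each of the 25 measured genes in the 4 libraries, in CPM on a log axis, with points for libraries, bars for the 95% Poisson interval of the count, and grey lines between roles (secreted ligands, intracellular factors, receptors, carrier, feedback inhibitors, ETS factors). Fgfr1, Fgfr2 and Fgfr3 lie at the right with narrow bars, while Fgf18 lies at 0.325 to 1.38 CPM with wide ones.

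The ridge ligands were nearly silent in these digit tips. Fgf8 had 1 count in Sp8 cKO and 0 in the other libraries, wildtype among them. Fgf4 had 1 count for Sp6 cKO, 0 for Sp8 cKO, 2 for Sp6+Sp8 cKO and 2 for wildtype, and Fgf17 had 0, 0 and 3 counts in the same cKO libraries and 2 in wildtype. The floor used for a count of 0 is 3 counts, which is 0.233 CPM in Sp6 cKO, 0.238 CPM in Sp8 cKO, 0.195 CPM in Sp6+Sp8 cKO and 0.138 CPM in wildtype. Fgf4, Fgf8 and Fgf17 were at or under this floor in every library. Fgf9 was the ridge ligand that was measured, with 1.78 CPM in Sp6 cKO, 1.19 CPM in Sp8 cKO and 1.17 CPM in Sp6+Sp8 cKO, against 1.84 CPM in wildtype. Its ratio in Sp6+Sp8 cKO was 1.57-fold lower than wildtype with an interval of 0.881 to 2.91, which includes 1.

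Several other ligands were also close to 0. Fgf6, a muscle ligand, and Fgf15, a gut hormone, had 0 counts in every library. The endocrine ligands Fgf21 (of liver) and Fgf23 (of osteocytes) had at most 1 and 2 counts. Fgf20 had at most 3 counts and Fgf16 between 3 and 6. Fgf3, a ligand of inner ear and tooth development, had 5, 7 and 3 counts in the cKO libraries, in the order Sp6, Sp8 and Sp6+Sp8, against 2 in wildtype. That leaves 8 secreted ligands at a CPM of 1 or more, namely Fgf1, Fgf2, Fgf5, Fgf7, Fgf9, Fgf10, Fgf18 and Fgf22.

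Fgf18, a ligand that controls cartilage and bone growth and hair cycling in mice, had the lowest log2 ratio to wildtype of the 25 measured genes in both libraries labelled as Sp8 knockouts. It lies on chromosome 11 from 33117430 to 33147400 (GRCm38, GENCODE M21). Fgf18 had 14 counts (1.09 CPM) in Sp6 cKO, 5 (0.397 CPM) in Sp8 cKO and 5 (0.325 CPM) in Sp6+Sp8 cKO, against 30 (1.38 CPM) in wildtype. Both libraries labelled as Sp8 knockouts were thus low, and the Sp6 cKO library lay between them and wildtype. Fgf18 was 3.48-fold lower in Sp8 cKO than in wildtype (95% interval 1.34 to 11.5) and 4.25-fold lower in Sp6+Sp8 cKO than in wildtype (1.63 to 14.0), and both ratios share the wildtype count. Within batch 1, Sp6+Sp8 cKO was 3.34-fold lower than Sp6 cKO (1.14 to 11.9), where 2.08% of genes were past the rule in the lower direction. Sp8 cKO was 2.73-fold lower than Sp6 cKO, but that interval, 0.931 to 9.70, included 1. Sp6 cKO itself was 1.27-fold lower than wildtype, with an interval of 0.654 to 2.59. These ratios rest on 5 to 30 counts. In each ratio of Sp8 cKO or Sp6+Sp8 cKO above, Fgf18 met the minimum of 1 CPM only through the other library. It could therefore be called there only as lower. Beside them, the summed CPM of 6 chondrocyte markers (4 of them at 1 CPM or more) was 298 for Sp6 cKO, 292 for Sp8 cKO and 175 for Sp6+Sp8 cKO, against 275 for wildtype. Among the 4 at 1 CPM or more, Col2a1 was 4.88, 3.33 and 1.56 CPM in the same cKO libraries, against 4.14 CPM in wildtype. Chad was 114, 96.3 and 43.6 CPM, against 111 CPM, and Comp was 118, 130 and 85.8 CPM, against 116 CPM. Acan was 60.0, 61.2 and 42.9 CPM, against 42.5 CPM, and was lower than wildtype in no cKO library. The summed CPM of the 4 tendon markers was 397, 415 and 255, against 411 in wildtype. That sum was low in Sp6+Sp8 cKO only among the 4 libraries, and it was mostly Fmod. In Sp6+Sp8 cKO, Fmod was 234 CPM, against 385 CPM in wildtype, and Tnmd was 11.3 CPM, against 16.6 CPM. Scx was nearly level there, at 2.34 CPM, against 2.39 CPM, and Mkx was slightly higher, at 7.34 CPM, against 7.04 CPM. The 4 osteoclast markers summed to 208 CPM for Sp6 cKO, 327 CPM for Sp8 cKO and 310 CPM for Sp6+Sp8 cKO, against 115 CPM for wildtype. They were thus higher than wildtype in every cKO library. The 8 osteoblast and osteocyte markers summed to 405, 418 and 356 CPM, against 314 CPM for wildtype. Their members moved in opposite directions. Bglap, the osteocalcin gene, was lower throughout, at 21.2, 18.3 and 11.2 CPM, against 33.4 CPM. Dmp1 was lower as well, at 22.3, 21.8 and 14.0 CPM, against 26.3 CPM. Ibsp was higher throughout, at 146, 172 and 151 CPM, against 75.3 CPM. Alpl was higher as well, at 130, 131 and 119 CPM, against 98.2 CPM. Sp7, Phex, Sost and Mepe were mixed. The part of these tissues in the Fgf18 ratios was not tested.

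Fgf22, a ligand of the Fgf7 and Fgf10 subfamily that is made in hair follicle epithelium, followed another order. It had 26 counts (2.02 CPM) in Sp6 cKO, 33 (2.62 CPM) in Sp8 cKO and 16 (1.04 CPM) in Sp6+Sp8 cKO, against 45 (2.07 CPM) in wildtype. Only the Sp6+Sp8 cKO library was low. It was 2.52-fold lower there than in Sp8 cKO (95% interval 1.35 to 4.90), which was past the size rule where 2.8% of genes were lower. The ratio to wildtype was 1.99-fold lower (1.10 to 3.77), just short of 2-fold, and the ratio to Sp6 cKO was 1.94-fold lower. The 7 nail and hair keratins were likewise lowest in sum in Sp6+Sp8 cKO, at 2442 CPM. Their sum was 4790 CPM for Sp6 cKO and 5351 CPM for Sp8 cKO, against 4475 CPM for wildtype. In Sp6 cKO the sum was thus above wildtype, where Fgf22 was not. Krt35 followed another order and was lowest in Sp6 cKO, at 89.0 CPM, against 122 CPM in Sp6+Sp8 cKO and 139 CPM in wildtype. The part of these keratins in the Fgf22 ratio was not tested. Exons of Rnf126 overlap Fgf22 on the other strand, and the sources used here do not say how the counting treated strand.

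The bulk of ligand transcripts came from Fgf1, Fgf2, Fgf7 and Fgf10. These 4 genes held 90.8% of 1030 secreted ligand counts in Sp6 cKO, 91.8% of 968 in Sp8 cKO and 93.9% of 1208 in Sp6+Sp8 cKO, against 89.0% of 1385 in wildtype. Per kilobase of annotated exon, Fgf7 led in Sp6 cKO and Sp8 cKO with 5.30 and 5.13 CPM per kb, and in wildtype with 3.64 CPM per kb. In Sp6+Sp8 cKO, Fgf2 led Fgf7 at 4.54 against 4.44 CPM per kb. Union exon lengths set this order, and a shorter main transcript would raise a gene's value.

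Fgf7, keratinocyte growth factor, is made by fibroblasts and acts on epithelium. It was 17.2 CPM in Sp6 cKO, 16.7 CPM in Sp8 cKO and 14.4 CPM in Sp6+Sp8 cKO, against 11.8 CPM in wildtype. The cKO libraries were all higher, by 1.46-fold (95% interval 1.21 to 1.75), 1.41-fold (1.17 to 1.70) and 1.22-fold (1.02 to 1.47), from 1 wildtype library of another batch. Fgf10, which acts on the same epithelial form of Fgfr2, was at 11.9, 10.6 and 11.05 CPM in the cKO libraries, against 11.1 CPM in wildtype. The highest Fgf10 level was 1.12 times the lowest.

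Fgf2, a basic growth factor stored on matrix heparan sulfate, was 29.5 CPM in Sp6 cKO, 25.4 CPM in Sp8 cKO and 30.8 CPM in Sp6+Sp8 cKO, against 21.9 CPM in wildtype. It too was higher in each cKO library, by 1.34-fold (95% interval 1.17 to 1.54), 1.16-fold (1.00 to 1.34) and 1.40-fold (1.23 to 1.60). Exons of Gm43439 overlap Fgf2 on the same strand and those of Nudt6 on the opposite strand, so part of its estimated count may be shared. Fgf1, the acidic growth factor that binds every FGF receptor, was 14.0, 17.9 and 17.4 CPM in the cKO libraries, against 11.9 CPM in wildtype. Fgf1 was 1.51-fold higher in Sp8 cKO than in wildtype (1.26 to 1.81) and 1.47-fold higher in Sp6+Sp8 cKO (1.23 to 1.75). Within batch 1, Fgf1 was also 1.29-fold higher in Sp8 cKO than in Sp6 cKO (1.05 to 1.57). Fgf5, which ends the hair growth phase in mice, had only 17, 10 and 22 counts in the cKO libraries and 28 in wildtype, and none of its intervals excluded 1.

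**Figure D2:**
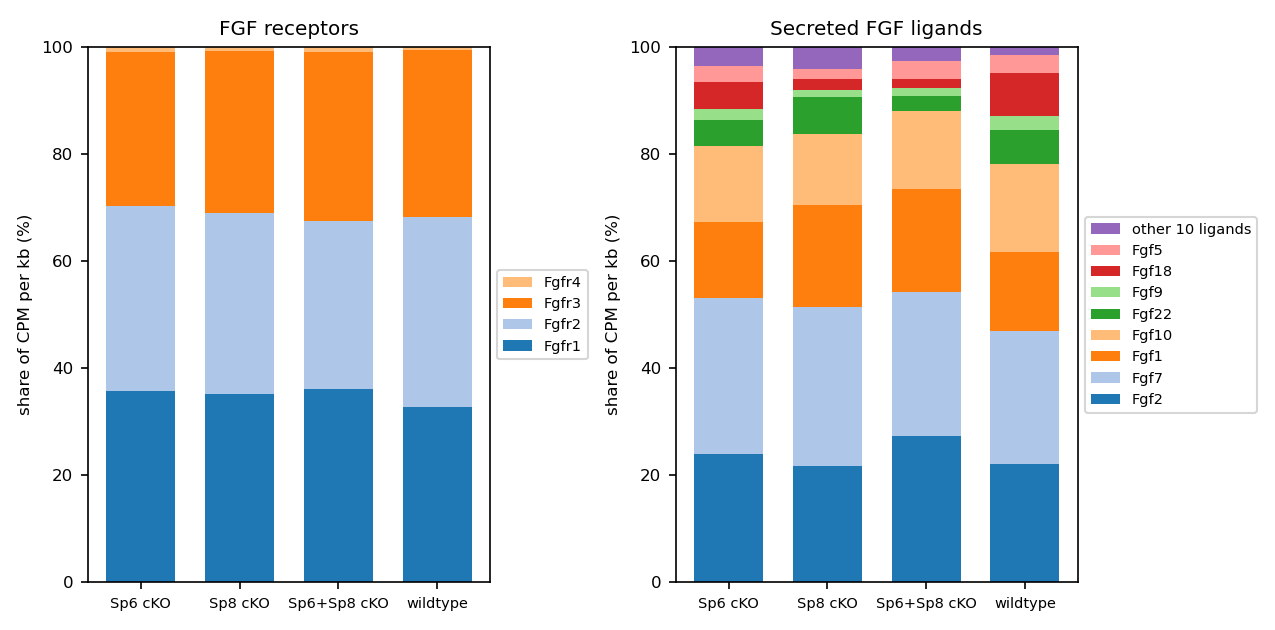
Share of CPM per kb of exon held by each FGF receptor (left) and each secreted ligand (right), in percent of the summed value, 1 bar per library. Fgfr1, Fgfr2 and Fgfr3 divide the receptor bar nearly evenly, and the Fgf18 band is 5.04% for Sp6 cKO, 1.94% for Sp8 cKO and 1.65% for Sp6+Sp8 cKO, against 7.93% for wildtype.

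The FGF homologous factors Fgf11 to Fgf14 stay inside the cell and bind voltage-gated sodium channels. Fgf13 was the steadiest measured member, at 5.51 CPM in Sp6 cKO, 5.64 CPM in Sp8 cKO and 5.33 CPM in Sp6+Sp8 cKO, against 5.61 CPM in wildtype, a highest level of 1.06 times the lowest. Fgf11 was 5.27, 5.64 and 6.37 CPM in the cKO libraries, against 5.34 CPM in wildtype. Fgf14 was 3.18, 2.70 and 2.14 CPM, against 3.22 CPM in wildtype. No interval of Fgf11, Fgf13 or Fgf14 excluded 1 in any of the 6 comparisons. Fgf12 had 8 counts for Sp6 cKO, 0 for Sp8 cKO and 4 for Sp6+Sp8 cKO, against 6 for wildtype.

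The kinase receptors were lower in sum in the cKO libraries. Fgfr1 to Fgfr4 together were 403 CPM in Sp6 cKO, 417 CPM in Sp8 cKO and 379 CPM in Sp6+Sp8 cKO, against 461 CPM in wildtype. Fgfr2, whose epithelial splice form receives Fgf7 and Fgf10, was 156 CPM in Sp6 cKO, 159 CPM in Sp8 cKO and 135 CPM in Sp6+Sp8 cKO, against 184 CPM in wildtype. Wildtype was the highest library and Sp6+Sp8 cKO the lowest, with Sp6 cKO and Sp8 cKO close together between them. The Sp6+Sp8 cKO level was 1.37-fold lower than wildtype (95% interval 1.30 to 1.44). It was also 1.16-fold lower than Sp6 cKO (1.09 to 1.23) and 1.18-fold lower than Sp8 cKO (1.11 to 1.25) within batch 1. Gene counts do not separate the epithelial from the mesenchymal splice form. The 6 suprabasal keratinocyte markers summed to 18290 CPM for Sp6 cKO, 14832 for Sp8 cKO and 13160 for Sp6+Sp8 cKO, against 18407 for wildtype. Krt10, the largest member, was 8459, 6626 and 6501 CPM, against 8086 CPM. Members differed: those above wildtype were 4 of the 6 for Sp6 cKO, 2 for Sp8 cKO and 1 for Sp6+Sp8 cKO. Ivl was higher throughout, at 36.7, 36.2 and 27.5 CPM, against 24.2 CPM. The part of these markers in the Fgfr2 ratios was not tested. The annotation gives Fgfr2 a span of 2961 kb and exons that overlap Ctbp2 on its strand, so its estimated counts are less certain.

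Fgfr3, expressed in epidermis and cartilage, was 90.1 CPM in Sp6 cKO, 98.4 CPM in Sp8 cKO and 93.8 CPM in Sp6+Sp8 cKO, against 113 CPM in wildtype. It was 1.25-fold lower in Sp6 cKO (95% interval 1.17 to 1.34), 1.15-fold lower in Sp8 cKO (1.07 to 1.23) and 1.20-fold lower in Sp6+Sp8 cKO (1.13 to 1.28). Among the cKO libraries its ratios were 1.09-fold or less. Fgfr1, the main mesenchymal receptor, was 155, 158 and 149 CPM in the cKO libraries, against 163 CPM in wildtype, and the highest level was 1.10 times the lowest. Fgfr4 had 19, 16 and 21 counts, against 22 in wildtype, and took at most 0.366% of receptor counts. Fgfrl1, a receptor without a kinase domain, was 5.43, 6.03 and 4.55 CPM, against 5.98 CPM in wildtype.

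Shares within a library do not depend on scaling. Fgfr2 held 38.8% of receptor counts in Sp6 cKO (95% interval 37.5 to 40.2), 38.1% in Sp8 cKO (36.8 to 39.5) and 35.6% in Sp6+Sp8 cKO (34.3 to 36.8), against 40.0% in wildtype (39.0 to 40.9). Fgfr1 held 38.4%, 37.9% and 39.3%, against 35.3% in wildtype (34.4 to 36.3). The Fgfr2 interval of Sp6+Sp8 cKO lay below those of Sp6 cKO and wildtype and met that of Sp8 cKO at its edge, and the Fgfr1 interval of wildtype did not overlap those of the cKO libraries.

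Fgfbp1 encodes a secreted carrier that frees FGFs from the matrix and is made by keratinocytes. It was 50.0 CPM in Sp6 cKO, 57.6 CPM in Sp8 cKO and 62.5 CPM in Sp6+Sp8 cKO, against 43.7 CPM in wildtype. Each cKO library was higher, by 1.14-fold (95% interval 1.03 to 1.26), 1.32-fold (1.19 to 1.45) and 1.43-fold (1.30 to 1.56). Within batch 1, Sp6+Sp8 cKO was 1.25-fold higher than Sp6 cKO (1.13 to 1.38) and Sp8 cKO was 1.15-fold higher than Sp6 cKO (1.03 to 1.28). Per kilobase it was the most abundant member in every library, at 22.1, 25.4 and 27.6 CPM per kb in the cKO libraries, against 19.3 CPM per kb in wildtype.

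**Figure D3:**
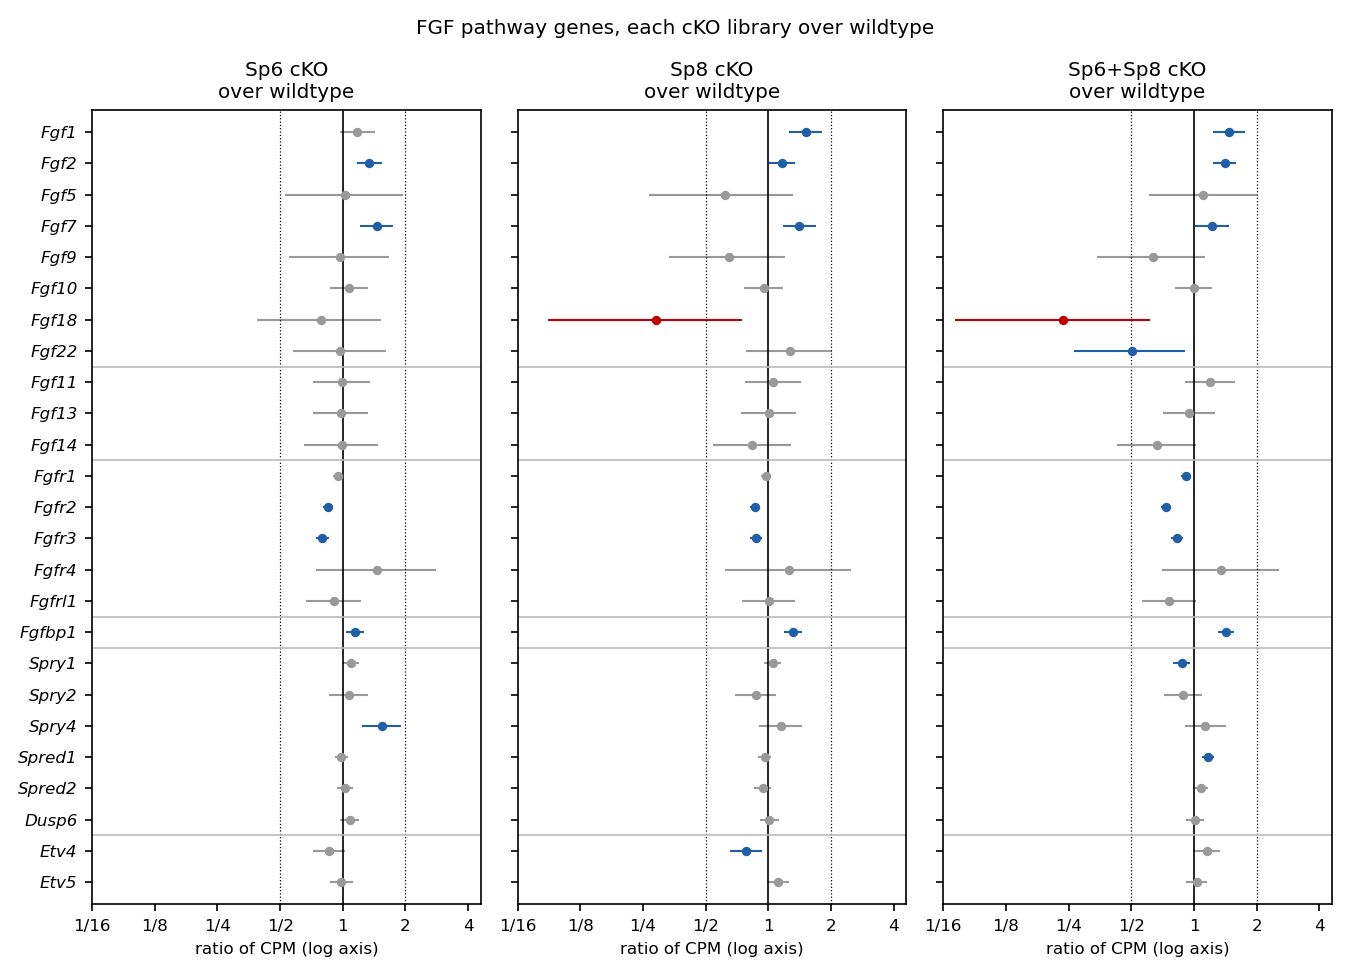
Ratio of CPM of each cKO library over wildtype for the 25 measured genes, on a log axis, with exact 95% intervals of the count ratio, dotted lines at 2-fold, red for genes past the size rule, blue for other genes whose interval excludes 1 and grey for the rest. Fgf18 is red in Sp8 cKO and Sp6+Sp8 cKO, and Fgf2, Fgf7 and Fgfbp1 lie right of 1 and Fgfr2 and Fgfr3 left of 1 in all 3 panels.

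The feedback inhibitors differed from wildtype by 1.54-fold or less, and Spry4 in Sp6 cKO, Spry1 in Sp6+Sp8 cKO and Spred1 in Sp6+Sp8 cKO had intervals that excluded 1. Dusp6, the phosphatase that switches off ERK and a close reporter of FGF signalling, was 45.5 CPM in Sp6 cKO, 42.7 CPM in Sp8 cKO and 42.7 CPM in Sp6+Sp8 cKO, against 42.2 CPM in wildtype. Its ratios to wildtype had intervals of 0.970 to 1.20, 0.908 to 1.13 and 0.914 to 1.12, none of which excluded 1. The 6 feedback inhibitors summed to 278 CPM in Sp6 cKO, 260 CPM in Sp8 cKO and 280 CPM in Sp6+Sp8 cKO, against 265 CPM in wildtype.

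Sprouty proteins block receptor signalling upstream of ERK. Spry1 was 54.6 CPM in Sp6 cKO, 52.4 CPM in Sp8 cKO and 43.7 CPM in Sp6+Sp8 cKO, against 50.0 CPM in wildtype, and Sp6+Sp8 cKO was the lowest library. Spry1 was 1.25-fold lower there than in Sp6 cKO (95% interval 1.12 to 1.39) and 1.20-fold lower than in Sp8 cKO (1.08 to 1.34). Spry4 was 12.9, 9.61 and 9.49 CPM in the cKO libraries, against 8.37 CPM in wildtype. The Sp6 cKO library stood out for Spry4, at 1.54-fold higher than wildtype (1.24 to 1.91), and Sp8 cKO and Sp6+Sp8 cKO were 1.34-fold and 1.36-fold lower than Sp6 cKO. Spry2 was 11.4, 9.29 and 9.49 CPM, against 10.7 CPM in wildtype, and none of its intervals excluded 1.

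Spred proteins hold back RAF activation by RAS. Spred1 was 87.6 CPM in Sp6 cKO, 85.3 CPM in Sp8 cKO and 104 CPM in Sp6+Sp8 cKO, against 89.0 CPM in wildtype. The Sp6+Sp8 cKO library was the high one, by 1.17-fold over wildtype (95% interval 1.10 to 1.25), 1.19-fold over Sp6 cKO (1.10 to 1.29) and 1.22-fold over Sp8 cKO (1.13 to 1.32). Spred2 was 66.3, 60.8 and 69.9 CPM in the cKO libraries, against 64.9 CPM in wildtype. Spred1 and Spry1 therefore stood on opposite sides in Sp6+Sp8 cKO although both are feedback inhibitors.

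The ETS factors Etv4 and Etv5 are direct outputs of FGF signalling in limb mesenchyme. Etv5 was 30.7 CPM in Sp6 cKO, 34.6 CPM in Sp8 cKO and 32.2 CPM in Sp6+Sp8 cKO, against 31.2 CPM in wildtype, and no interval excluded 1. Etv4 was 15.7, 14.3 and 21.1 CPM in the cKO libraries, against 18.3 CPM in wildtype. Etv4 was 1.28-fold lower in Sp8 cKO than in wildtype (95% interval 1.07 to 1.54). Within batch 1, Etv4 in the Sp6+Sp8 cKO library stood 1.34-fold above Sp6 cKO (1.12 to 1.61) and 1.48-fold above Sp8 cKO (1.23 to 1.78).

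Ratios among the cKO libraries leave out the wildtype library and its batch. The Sp8 cKO library stood apart in Xist, the RNA of the inactive X chromosome of female cells, at 27.9 CPM, against 1963 CPM in the Sp6 cKO library, 3528 CPM in Sp6+Sp8 cKO and 1526 CPM in wildtype. The sex of the mice is not in the labels, and every ratio with the Sp8 cKO library carries this difference, among them the Fgf18 call against wildtype and the Fgf22 call. Its part in them was not tested. Fgf18 alone was past the size rule in Sp6+Sp8 cKO against Sp6 cKO (3.97% of all genes in either direction), Fgf22 alone in Sp6+Sp8 cKO against Sp8 cKO (4.68%), and no member in Sp8 cKO against Sp6 cKO (3.1%, and 1.35% lower). At 1.5-fold these members were Fgf18 and Fgf22 (9.53% of all genes), Fgf22 (10.9%) and no member (6.02%). The medians of the 25 genes were -0.09, -0.02 and -0.06 on the log2 scale, beside -0.01, -0.02 and 0.00 over all genes. Fgfr2 and Spry1 were lower, and Spred1 and Etv4 higher, in Sp6+Sp8 cKO than in either of the other cKO libraries with intervals that excluded 1. These comparisons share the Sp6+Sp8 cKO library.

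**Figure D4:**
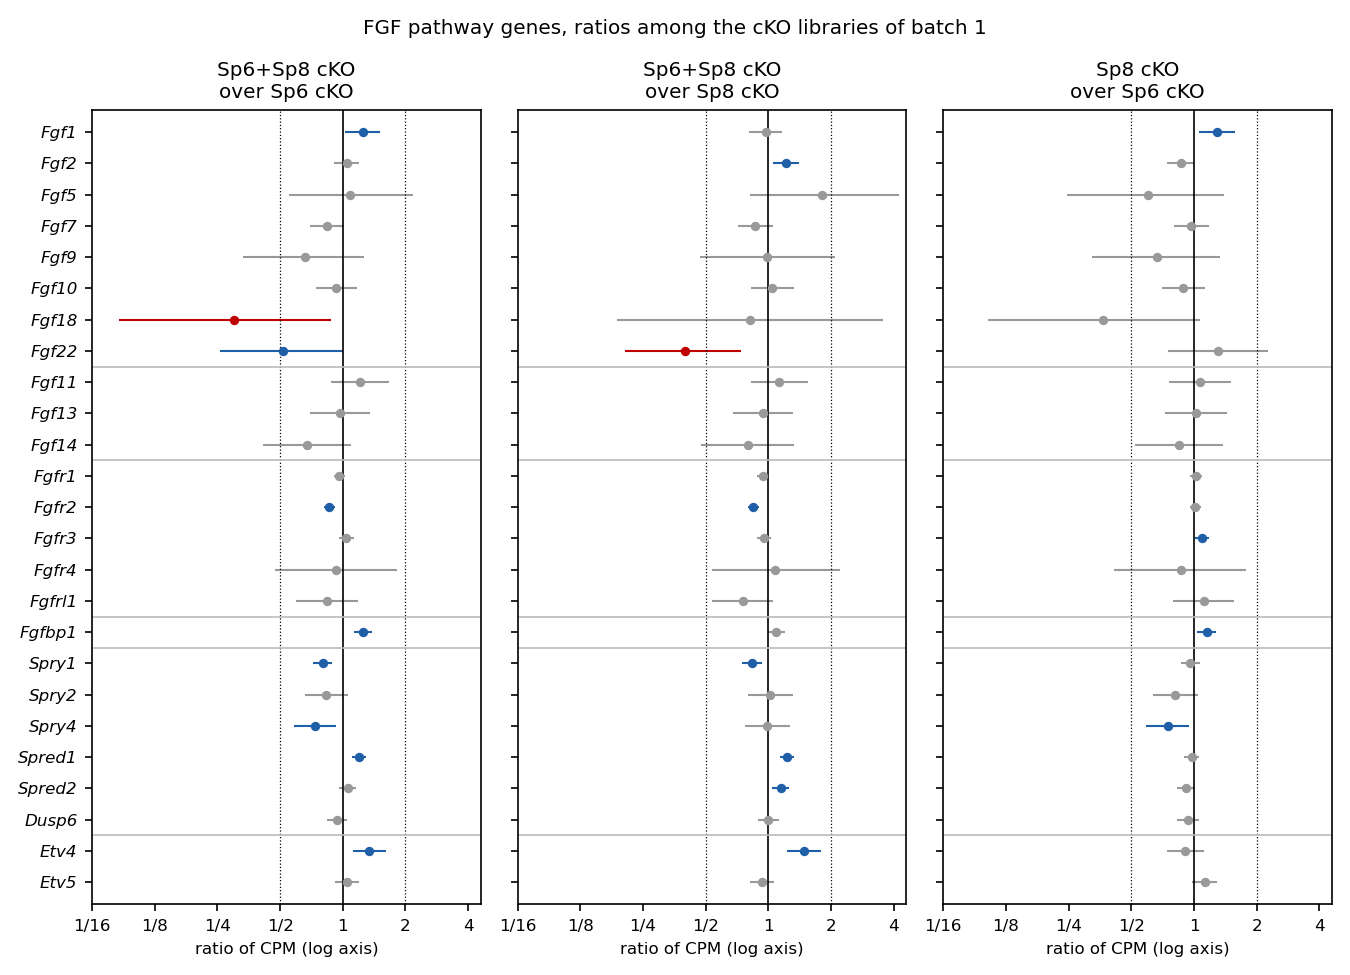
Ratio of CPM among the 3 cKO libraries of batch 1 for the 25 measured genes, on a log axis, with exact 95% intervals, dotted lines at 2-fold and the same colours as in the plot of ratios to wildtype. Fgf18 is red over Sp6 cKO and Fgf22 over Sp8 cKO, and most other points lie within 1.5-fold of 1.

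Intervals that exclude 1 were about as common among these genes as elsewhere. Against wildtype they were found for 6 of 25 genes (24%) for Sp6 cKO, 8 (32%) for Sp8 cKO and 11 (44%) for Sp6+Sp8 cKO, where 31.1%, 29.1% and 45% of all measured genes had such an interval. Among the cKO libraries they were found for 9 genes in Sp6+Sp8 cKO against Sp6 cKO (36%, with 35.4% of all genes), 7 in Sp6+Sp8 cKO against Sp8 cKO (28%, with 38.1%) and 4 in Sp8 cKO against Sp6 cKO (16%, with 21%). No genotype was replicated, so the spread between libraries of 1 genotype is unknown and these intervals do not hold it.

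**Figure D5:**
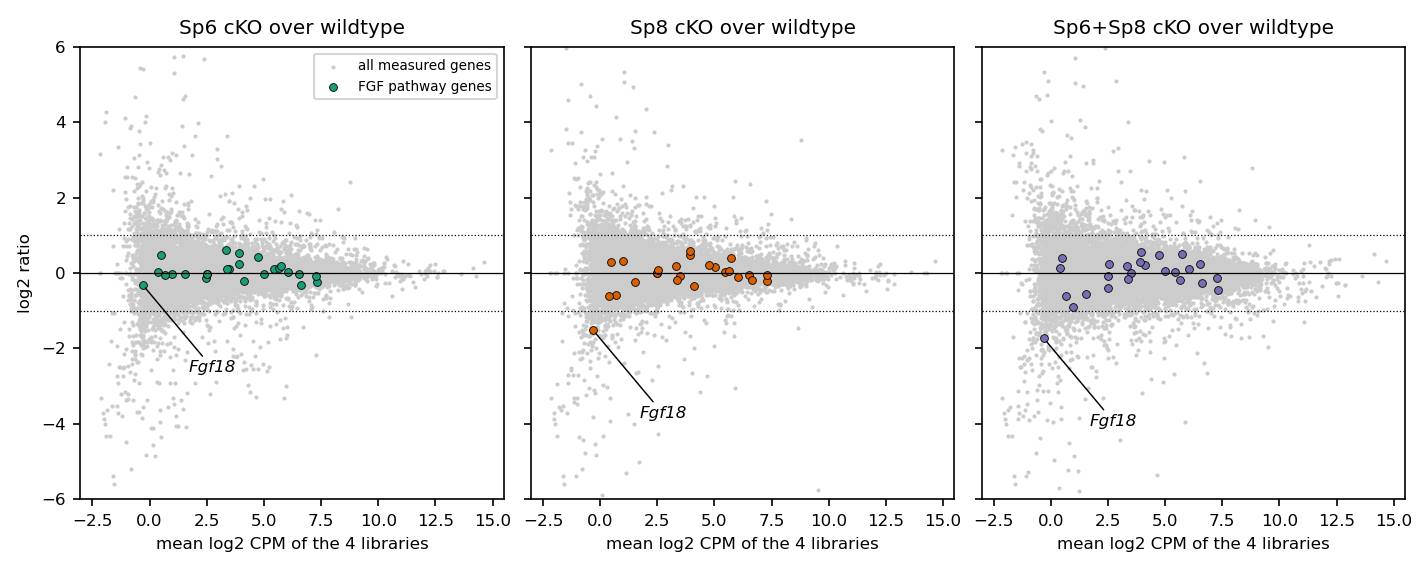
Log2 ratio of each cKO library to wildtype (vertical axis) against mean log2 CPM of the 4 libraries (horizontal axis), with the 17332 measured genes in grey, the 25 FGF pathway genes in colour and dotted lines at 2-fold. The coloured points lie inside the grey cloud and only Fgf18, at the low end of expression, passes a dotted line, in Sp8 cKO and Sp6+Sp8 cKO. Between 19 and 22 grey points a panel lie beyond the axis limit of 6.

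Other genes of the pathway were taken from lists of surface partners, heparan sulfate genes, cascade components and ERK targets. Of 7 measured co-receptors and surface partners, 0 were past the size rule in any of the 6 comparisons. Over all genes compared, 3.1% to 5.79% were past it in either direction. In lists this short, 0 calls is therefore near the background. Flrt1, of a protein family that binds FGF receptors, was 42.4 CPM in Sp6 cKO, 42.4 CPM in Sp8 cKO and 32.8 CPM in Sp6+Sp8 cKO, against 32.2 CPM in wildtype. Fgfbp3, a carrier related to Fgfbp1, had 21, 12 and 23 counts in the cKO libraries, against 23 in wildtype. Of 21 measured heparan sulfate proteoglycans and their enzymes 0 were past the rule. Hpse, the heparanase that cuts heparan sulfate, was 17.2, 15.96 and 10.3 CPM in the cKO libraries, against 17.4 CPM in wildtype. Gpc3, a glypican, was 25.1, 28.4 and 17.9 CPM, against 26.3 CPM in wildtype. Hpse and Gpc3 were thus both lowest in Sp6+Sp8 cKO.

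Of 20 measured adapters and ERK cascade genes 0 were past the size rule, again beside 3.1% to 5.79% of all genes. Frs3, an adapter that docks on FGF receptors, came nearest with 28, 27 and 27 counts in the cKO libraries, against 23 in wildtype, at log2 ratios of 0.96, 0.94 and 0.67. Without the prior count Frs3 was 2.05-fold higher in Sp6 cKO than in wildtype (95% interval 1.14 to 3.73) and 2.03-fold higher in Sp8 cKO (1.12 to 3.70), so the prior alone holds it short of the rule there. Mapk3, which encodes ERK1, was 130 CPM in Sp6 cKO, 152 CPM in Sp8 cKO and 109 CPM in Sp6+Sp8 cKO, against 131 CPM in wildtype. Among 12 other ERK target and feedback genes Fosl1, an AP-1 factor, was past the rule in the 3 comparisons that hold Sp6+Sp8 cKO. Of all genes, 5.79% were past it against wildtype, 3.97% against Sp6 cKO and 4.68% against Sp8 cKO. Fosl1 had 46, 49 and 164 counts in the cKO libraries, against 87 in wildtype, and was 2.66-fold higher in Sp6+Sp8 cKO than in wildtype (95% interval 2.04 to 3.496). Within batch 1 it was 2.99-fold higher than in Sp6 cKO (2.14 to 4.24) and 2.74-fold higher than in Sp8 cKO (1.98 to 3.85). Among 16 measured apical ridge genes that are not FGFs the calls were of Sp6 and Sp8 themselves. The ventral limb ectoderm factor En1, named after its values were seen, was 49.1 CPM in Sp6 cKO, 53.7 CPM in Sp8 cKO and 40.5 CPM in Sp6+Sp8 cKO, against 75.0 CPM in wildtype, and stayed within 2-fold.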

How the data were processed

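RNA from 4 libraries of whole digit tips, 1 per genotype, was sequenced. The authors deposited estimated counts per gene, not scaled for depth, and between 84.6% and 87.1% of values per column were whole. Salmon, STAR, featureCounts, deepTools, edgeR and Trim Galore 0.6.4 are named, with no roles, in the submitters' processing notes, as is the build GRCm38. Left unused was 1 column of the table whose name fits none of the listed samples.

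Estimated counts were rounded. TMM factors came from edgeR 4.0.16 in R 4.3.3, and log2 ratios from CPM with a prior count of 2. Intervals of ratios are exact (Clopper-Pearson, 95%, conditional on the summed count), and those of levels are Poisson. PCR duplicates without molecular identifiers are not independent, so intervals and floors (3 counts) cover counting error only. Positions and union exon lengths came from GENCODE M21 and promoter windows from RefSeq. The GC box was searched on both strands. The procedure was tested on simulated Poisson counts without spread between libraries, with changes set only in genes of at least 5 CPM. Fgf18 and Fgf22 lie under that level, so the simulation does not bear on their calls. All 36 genes are accounted for, and from each other pathway list the genes past the size rule, or otherwise the 2 with the largest absolute log2 ratio, are named. Members, lists and rules were chosen with earlier results of these data known. As alternatives, scaling used DESeq2 1.42.0 size factors or library totals with and without the 20 most abundant genes, and other settings were a prior count of 0.5, no CPM minimum or one of 5, a fold of 1.5, and shares of raw counts.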

Additional observations from a re-analysis of the deposited data

How the results depend on the processing

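The members past the size rule were the same genes under the other 3 scalings and the prior count of 0.5 in the 6 comparisons. With a CPM of at least 5 the counts were 0 in the 4 comparisons that had 1, since Fgf18 and Fgf22 lie under it. With no minimum, Fgf3, higher on 7 counts, was added in Sp8 cKO against wildtype (2 genes), and Fgf12 gave 1 gene in Sp8 cKO against Sp6 cKO. At 1.5-fold, Spry4 gave 1 gene in Sp6 cKO (9.09% of all genes), Fgf1 and Fgf18 gave 2 in Sp8 cKO (8.16%), and Fgf18 and Fgf22 gave 2 in Sp6+Sp8 cKO (13.8%) against wildtype and 2 against Sp6 cKO (9.53%). The member medians stayed between -0.0964 and 0.0631 over all settings. The 600 log2 ratios of single genes under other scalings or prior moved by less than counting error, and the sign differed in 5 of 150 ratios, none of them called. Shares by raw counts in place of per-length values moved in 32 of 38 cases, since gene lengths differ. No paired analysis was possible because each genotype had 1 library, and none could be left out. Depth limits Fgf18, whose calls rest on 5 to 30 counts.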

Other observations

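Ratios between FGF genes within a library need no scaling. Secreted ligand counts per 100 receptor counts were 19.8 for Sp6 cKO, 18.4 for Sp8 cKO and 20.7 for Sp6+Sp8 cKO, against 13.8 for wildtype. Fgf10 counts per 100 Fgf7 counts were 68.9, 63.3 and 76.6 in the cKO libraries, against 93.8 in wildtype. The 3 cKO libraries thus lay on the same side of wildtype in both ratios, where batch and knockout cannot be told apart. No interval was taken for these ratios. Counts of the feedback inhibitors and ETS factors per 100 receptor counts were 80.7, 74.2 and 87.9, against 68.2 in wildtype. The 36 genes together took 0.0867%, 0.0881% and 0.0885% of all counts in the cKO libraries, against 0.0900% in wildtype.

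Fgf13 lies on the X chromosome and stayed between 5.33 and 5.64 CPM over libraries whose Xist level ran from 27.9 to 3528 CPM. T cell markers (4 genes) summed to 18.9 CPM in Sp6 cKO, 6.99 CPM in Sp8 cKO and 17.5 CPM in Sp6+Sp8 cKO, against 2.71 CPM in wildtype. Their part in the levels of Fgf7, which epidermal T cells of mouse skin are known to make, was not tested.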
